A study of Sus scrofa with 24 samples.

Results

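miR-21 was followed in cultured porcine adipocytes through the deposited miRNA table, in which every entry named ssc-miR-21 with an arm suffix was taken. There were 2 such entries of 1587, ssc-miR-21-5p and ssc-miR-21-3p, which are the arms of 1 hairpin. The miRNA was chosen by its level: ssc-miR-21-5p had the highest mean TPM (the deposited unit, reads per 1000000 reads on the listed miRNAs) of all entries over the 24 libraries, so its abundance is given as a description, with no test. Preadipocytes came from 6-day-old Yorkshire piglets, from the subcutaneous fat of the back (BF) or from the longissimus dorsi muscle (IMF, intramuscular). They were induced to differentiate in culture with an adipogenic mixture of isobutylmethylxanthine, dexamethasone and insulin, followed by insulin alone and then by growth medium. Small RNA was sequenced from cultures taken on days 0, 2, 4 and 8, with 3 libraries in each of the 8 groups (BF-0d to BF-8d and IMF-0d to IMF-8d). Both sources were grown and induced alike and day 0 was before induction, but the muscle was digested for longer and with more collagenase than the fat, so source and isolation cannot be told apart. The labels do not tie a library to a piglet, so errors and p-values cover the spread between these libraries only. A mixed culture is read as a whole, and a lower level in fewer cells cannot be told apart from less RNA in each cell.

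A miRNA hairpin is cut out of a longer transcript by Drosha and trimmed by Dicer to a short duplex of its 5p and 3p arms. One arm is usually kept by an Argonaute protein and guides it to messenger RNAs through its seed, the bases near its 5′ end, while the opposite arm is mostly degraded. miR-21-5p is the kept arm of its hairpin. It is among the most abundant miRNAs of many cultured mesenchymal cells, its transcription is raised by STAT3 and AP-1, and it is known to repress PDCD4 and SPRY family transcripts, and in human adipose-derived stem cells the receptor TGFBR2.

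The mature arms are shown because the table counts them apart, with the seed (bases 2 to 8) in capitals and the 5′ end first.
ssc-miR-21-5p: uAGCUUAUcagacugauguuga
ssc-miR-21-3p: cAACAGCAgucgaugggcugu
The 5p arm has 22 bases and the 3p arm 21. The hairpin lies on the plus strand of Sscrofa11.1 at chr12:36065267-36065358, and the genome sequence there was identical to the listed precursor of 92 bases. It is shown with both arms in capitals.
ssc-mir-21 hairpin: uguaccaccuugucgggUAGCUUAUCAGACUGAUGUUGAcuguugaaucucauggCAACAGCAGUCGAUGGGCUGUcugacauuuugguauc
The 5p arm covers positions 18 to 39 of the hairpin (chr12:36065284-36065305) and the 3p arm positions 56 to 76 (chr12:36065322-36065342), with 16 bases between them. In the predicted fold 19 of the 22 bases of the 5p arm paired with the 3p arm, at a free energy of -42.6 kcal/mol. Each mature sequence matched the genome exactly at 1 place, so reads of miR-21 had no second locus of the same sequence. Among the 958 entries with a listed sequence, 0 others carried the seed of either arm, and the nearest to the 5p arm was novel_miR_1248, 8 edits away. Among the flanking genes in the RefSeq annotation used here were TUBD1, a tubulin gene on the minus strand whose nearer end lay 14581 bases to its right, and RPS6KB1 and CLTC.

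Libraries held from 4954845 to 16863560 reads on miRNAs. At these depths the widest 95% Wilson interval of a share of miR-21-5p spanned 0.0864 percentage points, which covers counting error only and is far below the spread between libraries. No pair of libraries of 1 group agreed within sampling noise, the lowest chi-square per degree of freedom over 24 pairs being 49.2. Of 5 miRNAs of skeletal muscle, 3 had a mean above 1 TPM. Their summed level ran from 475 to 2361 TPM over the libraries, almost all of it ssc-miR-1, and it was not confined to IMF. On days 0, 2, 4 and 8 the medians were 958, 513, 1145 and 1632 TPM in BF and 1283, 968, 845 and 1189 TPM in IMF, so the median was highest in BF-8d, where the mean of miR-21-5p was lowest. The myoblast miRNA ssc-miR-206 was at most 0.934 TPM and ssc-miR-133b at most 0.987 TPM. The 7 miRNAs of blood and immune cells summed to at most 8.08 TPM, with medians that went from 1.46 TPM in BF-0d to 3.97 TPM in BF-8d and from 1.75 TPM in IMF-0d to 7.38 TPM in IMF-8d, where ssc-miR-486 made up most of it, and the 2 arms of miR-126, an endothelial miRNA, to between 18.2 and 90.9 TPM. On day 8 these arms had from 51.2 to 90.9 TPM in BF and from 24.6 to 34.8 TPM in IMF, without overlap. The part of these lists in the results for miR-21 was not tested. The table has no miRNA that is made by adipocytes alone, so the label of the cells could not be checked directly.

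ssc-miR-21-5p took most of the reads of the undifferentiated cells and much less on day 8 in both sources. In BF-0d its share of the miRNA reads was 58.5%, 54.2% and 59.1% in replicates 1, 2 and 3. In BF-2d it was 56.1%, 54.5% and 56.8%, and in BF-4d it was 51.3%, 49.0% and 55.1%. In BF-8d it was 27.9%, 38.3% and 40.3%. Every BF-8d library was below all 9 libraries of the earlier BF days, and replicate 1 stood lowest of all 24. In IMF-0d the share was 60.5%, 53.0% and 58.9%, in IMF-2d 51.1%, 54.9% and 53.4%, and in IMF-4d 56.1%, 53.7% and 53.0%. In IMF-8d it was 45.0%, 43.2% and 39.4%, again below the 9 earlier libraries of its source.

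**Figure D1:**
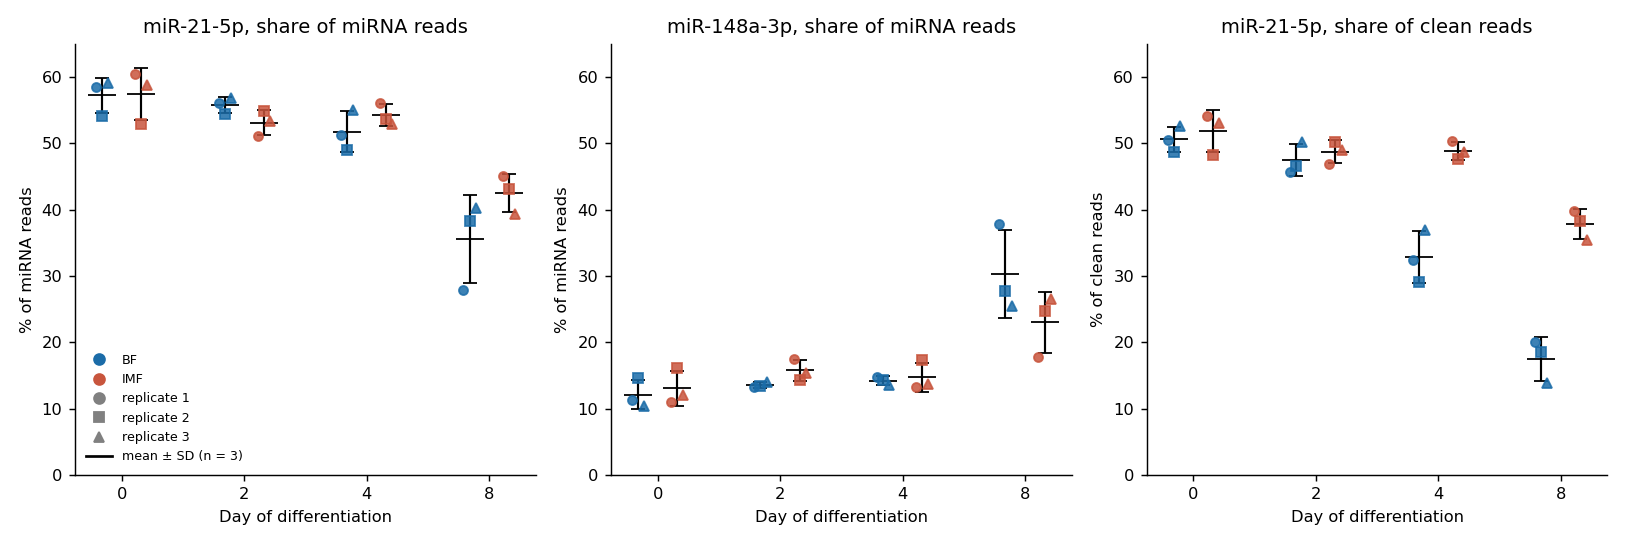
Shares of reads by day of differentiation (days spaced evenly), in percent, for miR-21-5p among the miRNA reads (left), miR-148a-3p among the miRNA reads (middle) and miR-21-5p among the clean reads (right), with 1 point per library, BF in blue, IMF in red and black bars for the mean ± SD (n = 3). In the left panel the 6 libraries of day 8 lie between 27.9% and 45.0%, below the other 18, which lie between 49.0% and 60.5%.

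Ordered by mean, the groups were IMF-0d (57.4% ± 3.92), BF-0d (57.2% ± 2.66), BF-2d (55.8% ± 1.19), IMF-4d (54.3% ± 1.65), IMF-2d (53.1% ± 1.88), BF-4d (51.8% ± 3.05), IMF-8d (42.5% ± 2.85) and BF-8d (35.5% ± 6.64; SD, n = 3 throughout). Each of the first 6 groups overlapped its neighbour in this order, and the steps between them were at most 1.52 points, smaller than the larger SD of the pair. The step from BF-4d down to IMF-8d was 9.25 points, and these groups did not overlap. IMF-8d and BF-8d differed by 7.03 points and overlapped. Over the 24 libraries the share had a mean of 51.0% and a median of 53.6%.

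In BF the fall over the whole course was called in the fit of the 2 end points, but not in every setting. Within BF the 4 days differed for ssc-miR-21-5p by limma's moderated F test on log2(TPM + 1) (adjusted p = 0.00209), as they did for 46.0% of the 430 entries tested, those whose mean was 1 TPM or more. From BF-0d to BF-8d the log2 fold change was -0.71 (SE 0.22, limma adjusted p = 0.0143), which met the criteria for a DE-miRNA, an FDR under 0.05 and a fold change above 1.5. DE-miRNAs made up 42.8% of all entries in this comparison, so a call there is common. The libraries of BF-0d and BF-8d did not overlap, and the exact two-sided permutation test gave p = 0.1, which no comparison of 3 with 3 libraries can go below. The call was lost with every entry kept (limma adjusted p = 0.0966), and without BF-0d replicate 1 (log2 fold change -0.69, limma adjusted p = 0.101) or BF-0d replicate 3 (-0.68, limma adjusted p = 0.0680). Without BF-8d replicate 1 the change was -0.54 (limma adjusted p = 0.00283), under the fold criterion.

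Between adjacent days of BF no step of ssc-miR-21-5p met the criteria, which 4.19%, 6.05% and 3.02% of entries met from day 0 to 2, 2 to 4 and 4 to 8. The log2 fold change was -0.04 (95% interval -0.19 to 0.12) from day 0 to day 2 and -0.11 (-0.26 to 0.04) from day 2 to day 4. From day 4 to day 8 it was -0.56 (-1.03 to -0.09, limma adjusted p = 0.155), with BF-4d and BF-8d not overlapping. At the deposited scale most of the difference was thus measured after day 4, and the intervals leave room for small changes before it. As a share of clean reads, given below, miR-21-5p was already lower in BF-4d (32.8% ± 3.97) than in BF-2d (47.5% ± 2.37; SD, n = 3), without overlap.

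In IMF the changes that ended on day 8 had the same direction with smaller values, and no comparison of days met the criteria. They were met by 30.5% of entries from IMF-0d to IMF-8d, by 13.0% from IMF-4d to IMF-8d and by 0 in the earlier steps, where limma gave 68 and 65 entries at an unadjusted p under 0.05, edgeR 7 and 1 calls and DESeq2 9 and 2. From IMF-0d to IMF-8d the log2 fold change was -0.43 (95% interval -0.90 to 0.03, limma adjusted p = 0.124), and from IMF-4d to IMF-8d -0.35 (-0.79 to 0.08, limma adjusted p = 0.229), although IMF-8d did not overlap either group. The 4 days of IMF gave an adjusted p of 0.0748 by limma's F test, against 37.7% of entries called. This F test was called in 7 of the 10 other settings tried, with adjusted p from 5.33e-06 to 0.144 over the 10. From day 0 to day 2 and from day 2 to day 4 the log2 fold changes were -0.11 (-0.48 to 0.26) and 0.03 (-0.30 to 0.37).

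BF and IMF were not told apart by ssc-miR-21-5p on any day at the scale of the deposited values, while 29.3%, 12.3%, 36.3% and 37.2% of entries were called on days 0, 2, 4 and 8. IMF minus BF, the log2 differences were 0.00 on day 0 (95% interval -0.38 to 0.39), -0.07 on day 2 (-0.21 to 0.07), 0.07 on day 4 (-0.17 to 0.31) and 0.28 on day 8 (-0.33 to 0.88). On day 8 the interval still holds differences above 1.5-fold. For the whole course from day 0 to day 8, IMF minus BF gave 0.27 (-0.09 to 0.63, limma adjusted p = 0.280), where 20.7% of entries were called, and the source-by-day interaction gave an adjusted p of 0.379, where 31.6% passed. Thus the call in BF and its lack in IMF do not show that the courses differed. The interaction test was called in 2 of the 9 other settings tried, DESeq2 and scaling to clean reads. Its adjusted p ran from 3.31e-04 to 0.520 over the 9.

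These values depend on what a library is scaled to, since ssc-miR-21-5p itself makes up much of the total. Its ratio to ssc-miR-148a-3p, the next entry by level, needs no total but moves with either entry. From day 0 to day 8 ssc-miR-148a-3p rose (log2 fold change 1.32 in BF and 0.82 in IMF), so the ratio does not measure miR-21-5p alone. In BF-0d this ratio was 5.20, 3.72 and 5.68 in replicates 1 to 3, and in BF-8d it was 0.738, 1.38 and 1.59. In IMF-0d it was 5.50, 3.29 and 4.91, and in IMF-8d 2.53, 1.74 and 1.49. The groups of day 0 and day 8 did not overlap in either source. BF-8d replicate 1 was the exception to the rank of miR-21-5p: it was first in 23 of the 24 libraries, and there ssc-miR-148a-3p, with 37.8% of the reads, stood above it.

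Scaled to the reads on all other miRNAs, the log2 fold change of ssc-miR-21-5p from day 0 to day 8 was -1.30 (BF, limma adjusted p = 3.65e-04) and -0.87 (IMF, limma adjusted p = 0.0259), and both then met the criteria. With median-of-ratios scaling, which rests on the typical entry rather than the total, they were -0.85 (BF, limma adjusted p = 0.00947) and -0.49 (IMF, limma adjusted p = 0.0924). The direction from day 0 to day 8 was the same under every scaling, while the call in IMF was not.

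**Figure D2:**
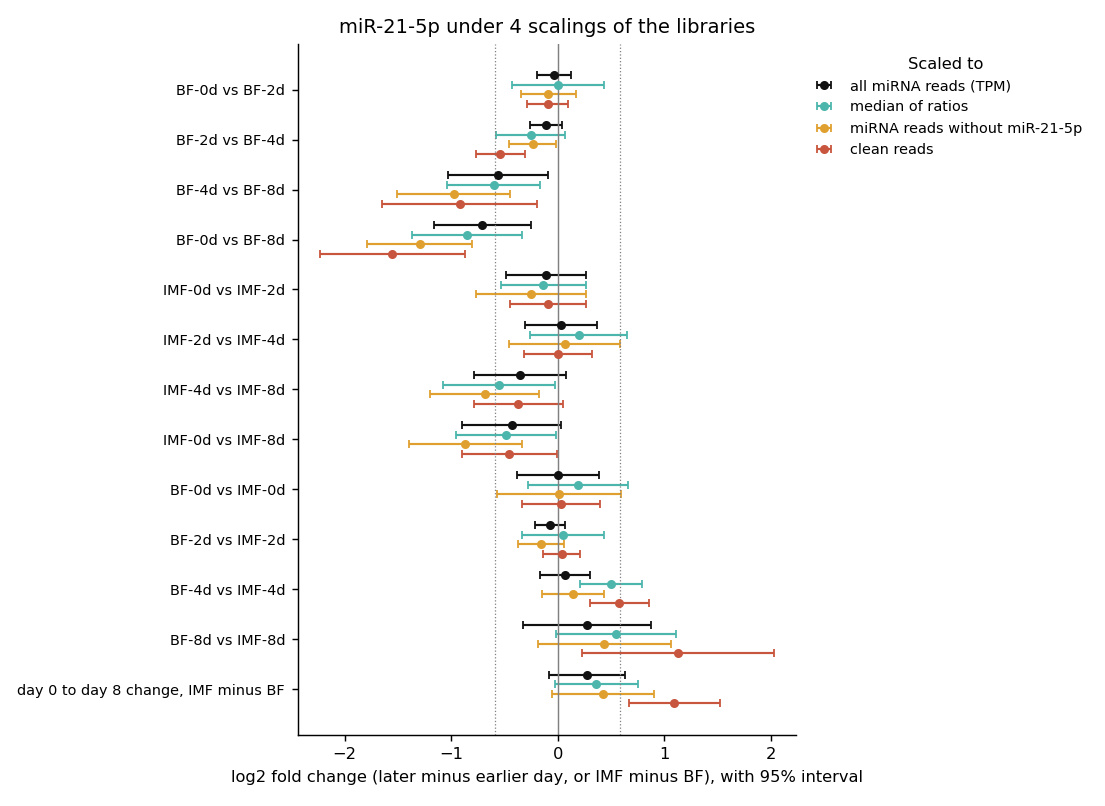
log2 fold change of miR-21-5p in the 12 comparisons, and the difference between the sources in the day 0 to day 8 change, with 95% intervals from limma, under 4 scalings of the libraries. Dotted lines mark a 1.5-fold change. The day 0 to day 8 points lie left of 0 under all 4 scalings, from -0.71 to -1.55 in BF and from -0.43 to -0.87 in IMF, and between the sources on day 8 the point scaled to clean reads, at 1.13, lies right of the other 3.

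Between the sources on day 8 the largest shift among these scalings came from scaling to all clean reads, whose numbers the study lists. The share of clean reads that were counted on miRNAs was 88.4% ± 1.81 in BF-0d, 85.1% ± 3.43 in BF-2d, 63.3% ± 3.93 in BF-4d and 51.5% ± 18.9 in BF-8d, while the IMF groups had means from 89.0% to 91.7% (SD, n = 3). As a share of clean reads ssc-miR-21-5p was 50.6% ± 1.92, 47.5% ± 2.37, 32.8% ± 3.97 and 17.5% ± 3.25 on days 0, 2, 4 and 8 in BF. In IMF it was 51.8% ± 3.14, 48.7% ± 1.72, 48.9% ± 1.36 and 37.8% ± 2.22 (SD, n = 3). On this scale BF-8d was below IMF-8d (log2 difference 1.13, IMF minus BF, limma adjusted p = 0.0393), and for the whole course IMF minus BF gave 1.10 (limma adjusted p = 2.47e-04). These shifts are partly common to the table on this scale, where 157 of 430 entries were called on day 8, with a median of 0.34 over all, and 176 for the whole course, with a median of 0.55. On day 4 the difference between the sources was 0.58 (limma adjusted p = 0.00545), just under 1.5-fold. The part that the other clean reads play in these differences was not tested.

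The share that ssc-miR-21-5p no longer held on day 8 appeared mostly with ssc-miR-148a-3p, a miRNA known to rise during adipogenesis. From day 0 to day 8 the mean share of miR-21-5p changed by -21.7 points in BF, and the difference in IMF was -14.9 points, both without overlap of the libraries. That of ssc-miR-148a-3p was higher by 18.3 points in BF and by 9.97 points in IMF. Its sequence is unlike that of miR-21, with the seed in capitals.
ssc-miR-148a-3p: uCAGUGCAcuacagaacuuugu
In BF-0d it had 11.2%, 14.6% and 10.4% of the reads in replicates 1 to 3, and in BF-8d 37.8%, 27.7% and 25.4%. In IMF-0d it had 11%, 16.1% and 12%, and in IMF-8d 17.8%, 24.8% and 26.5%. The day 8 libraries lay above those of day 0 in both sources. Its log2 fold changes were 1.32 in BF (SE 0.22, limma adjusted p = 1.72e-04) and 0.82 in IMF (SE 0.24, limma adjusted p = 0.0382).

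**Figure D3:**
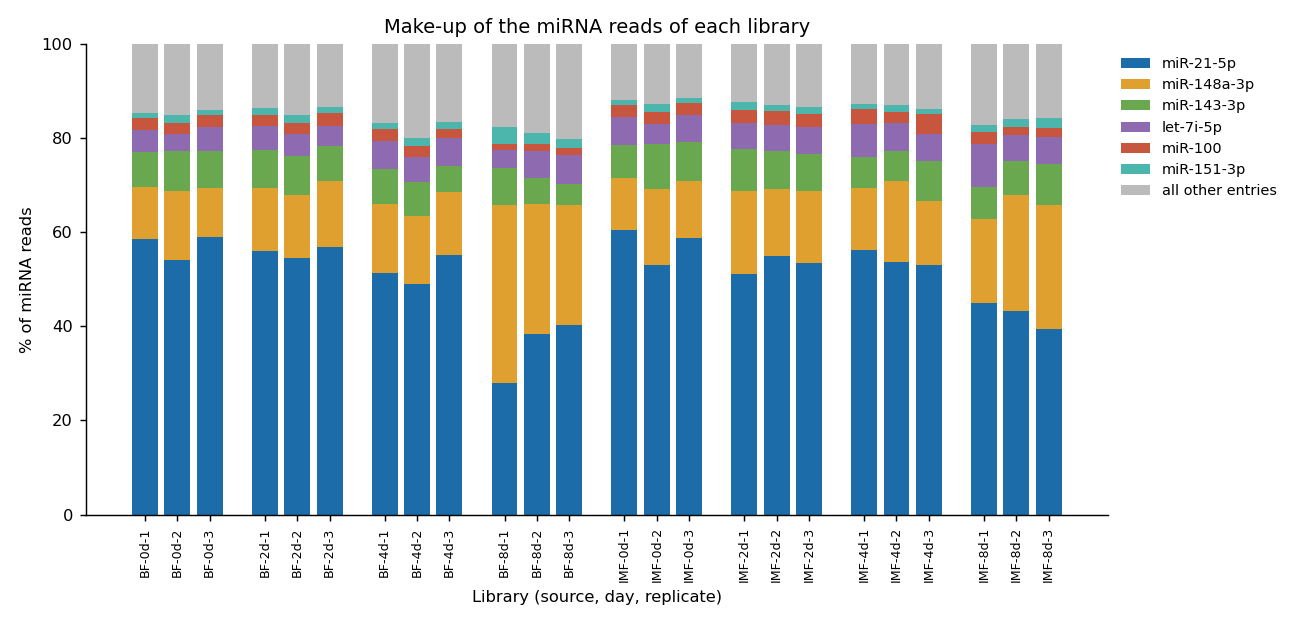
Make-up of the miRNA reads of the 24 libraries, in percent of the reads on miRNAs, with miR-21-5p at the base of each bar and the next 5 entries by mean level above it. The lowest bar of miR-21-5p (27.9%) and the widest band of miR-148a-3p (37.8%) are both in BF-8d replicate 1.

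Of the 9 entries next in mean level, 4 rose and 2 fell as DE-miRNAs from BF-0d to BF-8d, beside 120 and 64 of the 430 entries, and 4 rose and 0 fell from IMF-0d to IMF-8d, beside 85 and 46. Rises in both sources were measured for ssc-miR-148a-3p, for ssc-miR-10b (log2 fold change 0.87 in BF and 0.85 in IMF), a miRNA of the HOX clusters, and for ssc-miR-199b-5p (0.96 and 0.67). These rises depend on the total. Without the reads of miR-21-5p in it, ssc-miR-148a-3p still met the criteria in BF (0.73) but not in IMF (0.38), and neither ssc-miR-10b (0.28 and 0.41) nor ssc-miR-199b-5p (0.37 and 0.23) met them. With median-of-ratios scaling all 3 met them in BF (1.18, 0.73 and 0.81), while in IMF ssc-miR-199b-5p did (0.61) and ssc-miR-148a-3p (0.77, limma adjusted p = 0.0870) and ssc-miR-10b (0.79, limma adjusted p = 0.0615) did not. ssc-miR-27b-3p, known to repress PPARG, the master regulator of adipogenesis, fell in BF (-0.94), and under these scalings too (-1.53 and -1.08). In IMF its log2 fold change was 0.05 (limma adjusted p = 0.859), and -0.38 and -0.00115 under these scalings, not called. Its course differed between the sources (IMF minus BF 0.99, limma adjusted p = 0.0103), a call that 20.7% of entries shared. The other fall in BF was that of ssc-miR-100 (-0.70, and -1.29 and -0.84 under these scalings). In IMF it was called only without miR-21-5p in the total (-0.83). ssc-miR-143-3p, the third entry and a miRNA known to promote adipocyte differentiation, held from 4.48% to 9.67% of the reads. Its day 0 to day 8 log2 fold changes, -0.44 (BF) and -0.15 (IMF), were not called. Median-of-ratios scaling, at -0.59 (BF) and -0.20 (IMF), gave no call either. Once the reads of miR-21-5p were left out of the total, it met the criteria as a fall in both sources. The values were then -1.03 (BF) and -0.585 (IMF), the second at the edge of the fold criterion. ssc-let-7i-5p, the fourth, held from 3.67% to 9.23%. The 10 highest entries of each library, taken library by library and with miR-21-5p always among them, summed to 86.2% in the lowest library and 92.5% in the highest. This is a narrower range than that of miR-21-5p alone.

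Because each value is a share, the level of ssc-miR-21-5p and those of the other entries are tied to each other through the total. With its reads left out of the total, the median log2 fold change of the 430 entries from BF-0d to BF-8d moved from 0.15 to -0.37, and from IMF-0d to IMF-8d from 0.07 to -0.26. The number of DE-miRNAs hardly changed, 184 against 198 in BF and 131 against 127 in IMF, but 120 and 75 of them were shared. Of the DE-miRNAs, 65.2% were higher on day 8 in BF with all reads in the total and 28.3% without those of miR-21-5p. In IMF these shares were 64.9% and 22.8%. Under median-of-ratios scaling 101 of 181 were higher in BF and 75 of 128 in IMF. From BF-4d to BF-8d the number of DE-miRNAs went from 13 to 44, of which 7 were shared. Between BF and IMF on day 0, where the share of miR-21-5p was alike, 102 of the 126 DE-miRNAs were also called without it.

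ssc-miR-21-3p, the arm that is mostly degraded, was a minor entry. Its level ran from 18.3 to 71.3 TPM, with a mean of 49.9 TPM, and its rank in a library from 105 to 185. In BF-0d it had 55.9, 40.1 and 50.9 TPM in replicates 1 to 3, in BF-2d 59.7, 63.4 and 32.1 TPM, in BF-4d 36.9, 19.0 and 25.0 TPM, and in BF-8d 44.1, 32.4 and 42.4 TPM. In IMF-0d it had 56.0, 45.9 and 67.8 TPM, in IMF-2d 55.8, 51.6 and 67.3 TPM, in IMF-4d 69.7, 71.3 and 18.3 TPM, and in IMF-8d 61.3, 61.4 and 69.1 TPM. BF-4d was the lowest group and IMF-8d the highest. The low value of IMF-4d replicate 3 rested on 193 reads, with a 95% Wilson interval of 15.9 to 21.0 TPM, so counting error does not reach the other 2 libraries of its group. Neighbouring groups in the order of means overlapped throughout.

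On day 8 ssc-miR-21-3p was higher in IMF than in BF, 63.9 ± 4.46 against 39.6 ± 6.31 TPM (SD, n = 3), without overlap. The log2 difference was 0.69 (SE 0.18, limma adjusted p = 0.00729), a call that 37.2% of entries shared in this comparison. It was lost by the fold criterion without BF-8d replicate 2 (0.55, limma adjusted p = 0.0308) and by the FDR in a fit of all 24 libraries (limma adjusted p = 0.107). This was the only call for the 3p arm among the 12 comparisons. The 4 days of BF differed for it by limma's F test (adjusted p = 0.0449), but 9 of the 12 fits that left out 1 BF library ended this call, with adjusted p from 0.0503 to 0.199. From BF-2d to BF-4d its log2 fold change was -0.90 (95% interval -1.62 to -0.19, limma adjusted p = 0.10), and -1.15 (limma adjusted p = 0.0305) without BF-4d replicate 1. Between the sources on day 4 the difference was 0.77 (-0.19 to 1.73), and 1.40 (limma adjusted p = 0.00802) without IMF-4d replicate 3. In IMF the day 0 to day 8 change was 0.19 (-0.20 to 0.58).

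**Figure D4:**
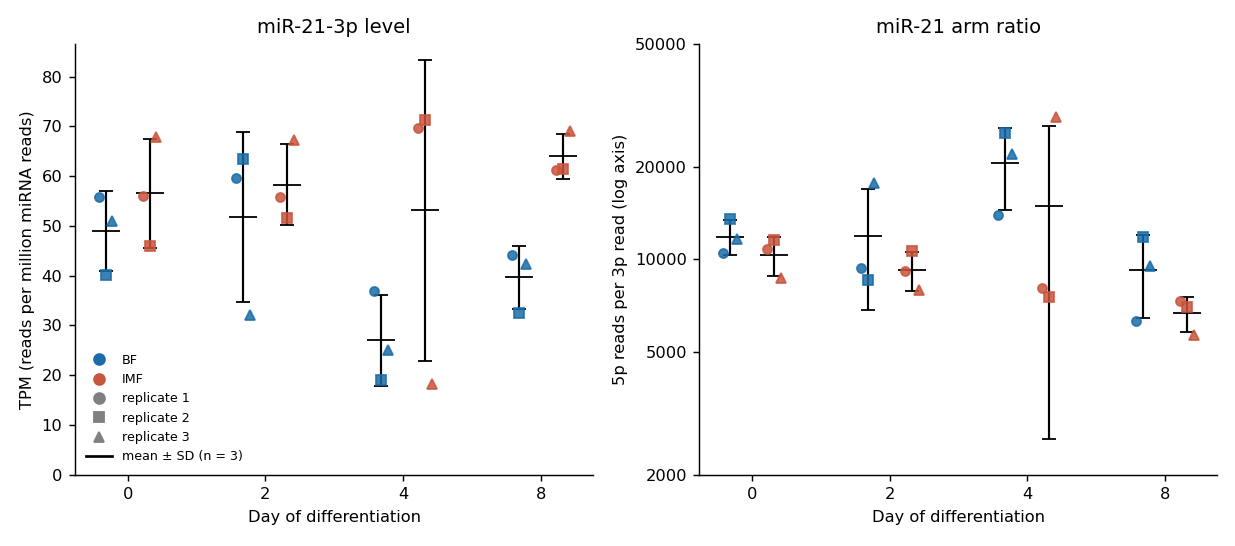
Level of miR-21-3p in TPM (left) and 5p reads per 3p read of miR-21 on a log axis (right), by day of differentiation (days spaced evenly), with 1 point per library, BF in blue, IMF in red and black bars for the arithmetic mean ± SD (n = 3). IMF-4d replicate 3 stands apart in both panels, at 18.3 TPM and 29010 reads per read, and IMF-8d is the tightest high group on the left.

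The ratio of the arms does not depend on the library total. Over the libraries there were from 5705 to 29010 reads of the 5p arm for each read of the 3p arm. In BF-0d the ratio was 10464, 13512 and 11613 in replicates 1 to 3, in BF-2d 9400, 8596 and 17671, in BF-4d 13893, 25750 and 21991, and in BF-8d 6332, 11816 and 9506. In IMF-0d it was 10796, 11538 and 8680, in IMF-2d 9159, 10642 and 7940, in IMF-4d 8054, 7531 and 29010, and in IMF-8d 7344, 7026 and 5705. IMF-8d was the lowest group and lay wholly below IMF-0d, IMF-2d and IMF-4d.

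From BF-4d to BF-8d the arm ratio fell by 1.14 on the log2 scale (SE 0.35, limma adjusted p = 0.0251 over 59 hairpins), without overlap. This was its only call in 12 comparisons, and 8.47% of hairpins were called there. In the others the share of hairpins called was 30.5% from BF-0d to BF-8d, 13.6% between the sources on day 8, 5.08% from BF-2d to BF-4d, from IMF-0d to IMF-8d and between the sources on day 4, 3.39% from IMF-4d to IMF-8d, and at most 1.69% in the rest. The call did not hold in 5 of the 6 fits that left out a library, which gave log2 changes from -1.33 to -0.89 and adjusted p from 0.0752 to 0.250, and it held without BF-4d replicate 1 (-1.39, limma adjusted p = 0.0162). From IMF-0d to IMF-8d the ratio was lower by a log2 value of -0.62 (95% interval -1.05 to -0.20, limma adjusted p = 0.0723), and from BF-0d to BF-8d the value was -0.41 (-1.08 to 0.26). Between BF and IMF on day 8 it was -0.41 (-0.96 to 0.14), and the source-by-day interaction gave an adjusted p of 0.841.

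Among the 59 hairpins whose arms both averaged 1 TPM or more, miR-21 had the second highest ratio of 5p to 3p, with a mean log2 ratio of 13.36. ssc-let-7i stood above it at 13.77, where the 3p arm had 3.04 TPM, and ssc-miR-10a below it at 9.73. The 5p arm led in 32 hairpins and the 3p arm in 27, and the median size of the log2 ratio was 3.59. The ratio of miR-21 varied within groups by an SD of 0.50 on the log2 scale, the sixth highest of the 59, where the median was 0.37. This place rests on IMF-4d replicate 3, without which the SD was 0.34 and its place 33, beside a median of 0.37.

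**Figure D5:**
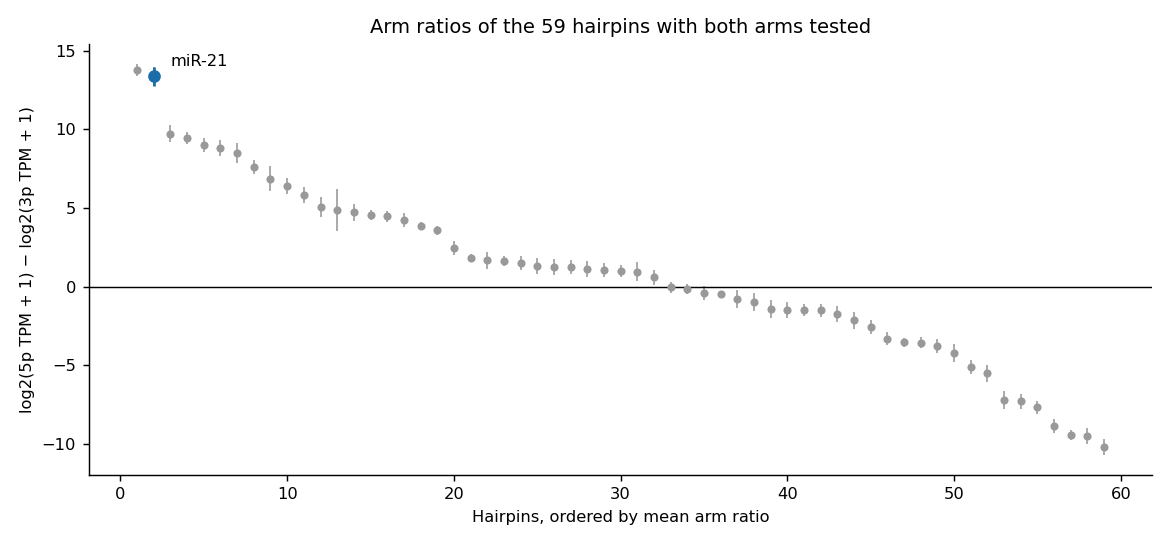
Mean log2 ratio of the 5p to the 3p arm (log2 of TPM + 1) of the 59 hairpins with both arms tested, in order, with bars for the SD over 24 libraries and miR-21 in blue. miR-21 is the second point from the left, at 13.36, and the next hairpin to its right is at 9.73.

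The entries whose level moved most like that of ssc-miR-21-5p were found by Pearson's r of log2(TPM + 1) over the 24 libraries, among 429 others. The libraries share the total of which miR-21-5p is the largest part, so these values describe the table. The highest r was 0.85, for ssc-miR-7857-3p.
ssc-miR-7857-3p: aUUGUUCUccaaccuggcucuu
Its level was 29.7 ± 1.40 TPM in BF-0d and 10.3 ± 3.44 TPM in BF-8d, and 38.2 ± 2.92 TPM in IMF-0d and 10.3 ± 3.85 TPM in IMF-8d (SD, n = 3). Next came novel_miR_462, novel_miR_324 and novel_miR_1096, 3 entries with the same values in every library (r = 0.83), and novel_miR_524 (r = 0.78), which had a mean of only 2.13 TPM. The lowest r was -0.95, for ssc-miR-148a-3p, followed by ssc-miR-101 (-0.88), ssc-miR-151-3p (-0.86), novel_miR_688 (-0.80) and ssc-miR-769-5p (-0.80). With median-of-ratios scaling 3 of the 5 highest entries and 0 of the 5 lowest were again at their end of the order, and r for ssc-miR-148a-3p was -0.50. The 3 entries of equal values tied there at places 4, 5 and 6, so the first count depends on the order of ties. Without miR-21-5p in the total 4 of the 5 highest and 1 of the 5 lowest stayed at their end, and ssc-miR-148a-3p was again last, at -0.89. There ssc-miR-148a-3p is itself the largest part of the divisor that both entries share, so this r is tied to the scaling. The 3p arm of miR-21 had an r of 0.08 to its own 5p arm (rho 0.18) and took place 157 of 429. With median-of-ratios scaling r was 0.39 (rho 0.42) and the place 124. With the reads of miR-21-5p left out of the total r was 0.43 (rho 0.57), but there the median r of all entries also went from -0.08 to 0.29, and the place was 165.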

How the data were processed

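Members and lists were chosen with earlier results of these data known. Small RNA was sequenced by the authors in single-end reads of 50 nt. Reads without adapters and of sufficient quality were matched exactly to Sscrofa11.1 (Bowtie), assigned to miRBase entries (BLAST) or to new hairpins (miRDeep2), and compared with DESeq2. The deposited values are RPM, named TPM by the authors, and each library sums to 1000000. Whole reads were recovered from them (largest deviation 0.000569 reads over 38088 values). In IMF-2d replicates 1 and 2 a read is worth close to 0.1 TPM, so there the step alone does not tell reads from rounded values, and their read numbers are less certain. No molecular identifiers are described, so PCR duplicates are counted as reads.

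limma 3.58.1 (R 4.3.3, eBayes with trend) was fitted to log2(TPM + 1) of the libraries compared, over 430 entries averaging 1 TPM or more, with Benjamini-Hochberg adjustment over them all, in 12 comparisons. A log2 fold change is the later minus the earlier day, or IMF minus BF, and understates changes of low entries. A DE-miRNA has FDR under 0.05 and a fold change above 1.5. Arm ratios were fitted over 59 hairpins. Positions and folds came from the sequences that the study lists, Sscrofa11.1 and RNAfold 2.7.2.

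Other settings tried were a pseudocount of 0.1, every entry kept, entries averaging 10 TPM or more, a joint fit of all groups, a replicate block, 3 other scalings, edgeR 4.0.16, DESeq2 1.42.0 and the removal of single libraries. The fits were also run on simulated data in which miR-21-5p itself was never changed, so a fall of an entry this large was not tried. The named entries are the arms, entries with their seeds, the 9 next by level, the 5 highest and 5 lowest by r and the neighbours by arm ratio. Another list in the rule is not reported here.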

Additional observations from a re-analysis of the deposited data

How the results depend on the processing

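Of 370 values from 46 results of miR-21 under settings other than leaving out libraries, 328 kept their direction and their side of the threshold, 24 gained a call, 5 lost one and 13, all of results that were not called, changed sign. The causes were not tested except where the setting itself changes the scale. The difference of ssc-miR-21-5p between the days of BF was called under all 10 such settings (adjusted p from 4.89e-06 to 0.0162). Its fall from BF-0d to BF-8d kept -0.71 but lost its call with every entry kept (adjusted p = 0.0966). With every entry kept, the F tests gave adjusted p of 0.197 for the days of BF in the 3p arm and 0.0496 for the days of IMF in the 5p arm, which thereby gained a call, as it did with entries averaging 10 TPM or more (0.0343), in the joint fit of all groups (0.0307), with median-of-ratios scaling (0.0396), without miR-21-5p in the total (0.0134), with edgeR (0.00488) and with DESeq2 (5.33e-06). The joint fit also ended the calls of the 3p arm between the sources on day 8 (log2 difference 0.69) and over the days of BF (adjusted p = 0.0802). DESeq2 gave an interaction of ssc-miR-21-5p with an adjusted p of 0.0451, and scaling to clean reads 3.31e-04.

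Calls gained under other scalings, as log2 fold changes, were -0.98 for the 5p arm from BF-4d to BF-8d, -0.87 for the 5p arm from IMF-0d to IMF-8d and -0.88 for the 3p arm from BF-0d to BF-8d without miR-21-5p in the total. Scaled to clean reads they were 1.13 for the 5p arm between the sources on day 8, 1.10 and 1.27 for the 5p and 3p arms in the whole course (IMF minus BF), and -1.30 and -1.11 for the 3p arm from BF-2d to BF-4d and from BF-0d to BF-8d. From BF-2d to BF-4d the 3p arm was also called with median-of-ratios scaling (-1.04) and DESeq2 (-1.08). DESeq2 called the 5p arm from IMF-4d to IMF-8d (-0.59) and the 3p arm between the sources on day 4 (1.43), and edgeR the 5p arm between the sources on day 8 (0.61).

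The log2 differences that changed sign were, for the 5p arm, 0.00333 from BF-0d to BF-2d (median-of-ratios scaling) and 0.0513, 0.0387, 0.097 and 0.0646 between the sources on day 2 (median-of-ratios scaling, clean reads, edgeR and DESeq2). For the 3p arm they were -0.0183 and -0.0237 from BF-0d to BF-2d (without miR-21-5p in the total and clean reads), -0.0913 and -0.0220 from IMF-0d to IMF-2d (without miR-21-5p in the total and edgeR), 0.0742 and 0.0376 from IMF-2d to IMF-4d (edgeR and DESeq2), -0.24 from IMF-0d to IMF-8d (without miR-21-5p in the total) and -0.00451 from IMF-4d to IMF-8d (DESeq2).

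The replicate numbers did not pair the libraries: over 84 pairs of equal number the deviations from the group means had correlations from -0.329 to 0.509 (median -0.00346), and 9 of 24 libraries were closest to their own number. With the replicate block ssc-miR-21-5p was not called from BF-0d to BF-8d (-0.71, adjusted p = 0.0746), and the arm ratio was called from IMF-0d to IMF-8d (-0.62, adjusted p = 0.0256) and between the sources on day 4 (-0.70, adjusted p = 0.00113).

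Leaving out 1 library at a time gave from -0.81 to -0.54 for the fall of the 5p arm from BF-0d to BF-8d and from -0.0355 to 0.0603 for its difference between the sources on day 0. For the 3p arm it gave from -0.14 to 0.34 for BF-0d to BF-2d, from -1.21 to -0.69 for BF-2d to BF-4d, from -0.0894 to 0.19 for IMF-0d to IMF-2d, from -0.67 to 0.28 for IMF-2d to IMF-4d, from -0.14 to 0.81 for IMF-4d to IMF-8d, and from -0.0866 to 0.39, from 0.45 to 1.40 and from 0.55 to 0.77 between the sources on days 2, 4 and 8. Adjusted p ran from 0.00931 to 0.199 over the days of BF and from 0.0259 to 0.943 for the interaction, called without replicate 3. For the arm ratio it gave from -0.39 to 0.12 for BF-0d to BF-2d, from -1.39 to -0.89 for BF-4d to BF-8d, from -0.23 to 0.71 for IMF-2d to IMF-4d, from -1.17 to -0.23 for IMF-4d to IMF-8d, from -0.74 to -0.51 for IMF-0d to IMF-8d, and from -0.48 to 0.0290 and from -1.32 to -0.37 between the sources on days 2 and 4. The ratio from IMF-4d to IMF-8d was called without IMF-4d replicate 2 (-1.17), that from IMF-0d to IMF-8d without IMF-0d replicate 3 (-0.74) and that between the sources on day 4 without IMF-4d replicate 3 (-1.32).

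Over the settings that kept all libraries, the number of DE-miRNAs lay between 105 and 209 from BF-0d to BF-8d (184 in the report), between 70 and 147 from IMF-0d to IMF-8d (131), between 28 and 69 from IMF-4d to IMF-8d (56), between 0 and 9 and between 0 and 2 in the earlier steps of IMF (0), and between 0 and 56, 0 and 104, and 3 and 81 in the successive steps of BF (18, 26 and 13). Between the sources it lay between 76 and 127 on day 0 (126), 2 and 69 on day 2 (53), 50 and 183 on day 4 (156) and 101 and 163 on day 8 (160). It lay between 125 and 243 over the days of BF (198), 108 and 172 over those of IMF (162), 77 and 169 for the interaction (136) and 47 and 176 for the whole course (89). Hairpins called by arm ratio lay between 1 and 6 from BF-4d to BF-8d (5) and between 9 and 19 from BF-0d to BF-8d (18). The 3p arm had as few as 180 reads in a library (BF-4d replicate 2, 95% Wilson interval 16.5 to 22.0 TPM), an interval that does not reach the other libraries of its group, at 25.0 and 36.9 TPM, so counting error is smaller than the spread between them. With 3 libraries a group, differences near 1.5-fold pass or miss the criteria by the weight of 1 library. The scalings of the entries next in level and the SD of the arm ratio without IMF-4d replicate 3 were chosen after seeing the data.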
